A study of Mus musculus with 39 samples.

Results

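The immediate early and heat shock genes were followed across 39 bulk RNA-seq libraries of AB1-HA tumours. The genes were chosen by symbol, with earlier results from these same counts known, from the AP-1, EGR and NR4A transcription factors and from the HSP70 and HSP40 chaperones. Of the 10 named genes, 8 had a row among the 39676 genes of the count table. Of these 8 genes, 5 are immediate early genes (Fos, Fosb, Junb, Egr1 and Atf3) and 3 are heat shock genes (Hspa1a, Hspa1b and Dnajb1). Ier2 and Nr4a1 were not analysed here. Because the 8 genes were picked with these counts in view, their fold changes and adjusted p-values describe them and are not independent evidence.

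The AB1-HA line derives from a murine mesothelioma and expresses a haemagglutinin transgene from influenza. It was grown subcutaneously in adult female and male BALB/c mice, and whole tumours were resected. The PBS group held 10 tumours, the Tretinoin group 9, the ICT group 10 and the Tretinoin+ICT group 10. Tretinoin, all-trans retinoic acid, was given at 5 mg/kg once a day in 5 doses from day 4. ICT, immune checkpoint therapy, was 100 µg of anti-CTLA-4 plus 100 µg of anti-PD-L1 on day 7, and Tretinoin+ICT received both treatments. The Tretinoin+ICT mice bore a tumour on each flank. The tumour resected on day 9 was sequenced, and the tumour left in place was used to class 6 of these mice as responders and 4 as non-responders. Tumours are named here by their titles (AB11 to AB85), whose first digit gives a name series. Each treatment had a pair of name series of its own, so a difference between treatments and a difference between series cannot be told apart.

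Immediate early genes are transcribed within minutes of a growth factor, cytokine, stress or mechanical signal, without new protein synthesis, and their mRNAs decay quickly. Fos, Fosb and Junb encode subunits of the dimeric transcription factor AP-1, Egr1 a zinc finger factor, and Atf3 a bZIP factor of the ATF/CREB family that is also a target of the integrated stress response. Ligand-bound retinoic acid receptors are known to repress AP-1 activity. The heat shock genes are switched on by HSF1 when unfolded proteins accumulate. Hspa1a and Hspa1b encode the stress-inducible HSP70 and Dnajb1 its HSP40 co-chaperone.

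The promoters are shown because they can carry binding sites through which such genes are switched on. The windows searched here may leave some of those sites out. RefSeq promoters were found for 7 of the 8 genes, with 2 start sites for Dnajb1. Sequences below run 5′ to 3′ on the gene's own strand of GRCm38.p6. They span chr12:85473640-85473889 for Fos, which is the whole 250 bases before the start, chr7:19310089-19310117 for Fosb, chr8:84978838-84978866 for Junb, chr1:191183334-191183352 for Atf3, chr17:34972241-34972272 for Hspa1a and chr17:34959323-34959354 for Hspa1b. Fos and Dnajb1 lie on the plus strand and the other 5 genes on the minus strand. Capitals mark the core of the cyclic AMP response element (TGACG, or CGTCA on the other strand) in the immediate early genes and the heat shock pair (GAANNTTC) in the heat shock genes.
Fos: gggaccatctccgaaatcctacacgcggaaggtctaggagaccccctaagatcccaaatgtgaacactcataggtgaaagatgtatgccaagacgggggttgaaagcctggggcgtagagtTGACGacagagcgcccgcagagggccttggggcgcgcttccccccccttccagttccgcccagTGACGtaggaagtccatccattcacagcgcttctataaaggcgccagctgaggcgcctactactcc
Fosb: tggagttgcgggTGACGcaagcgcggggg
Junb: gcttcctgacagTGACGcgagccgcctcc
Atf3: ttaatagcattaCGTCAgc
Hspa1a: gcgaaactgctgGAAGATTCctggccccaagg
Hspa1b: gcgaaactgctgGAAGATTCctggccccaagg

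The 250 bases before the start held TGACG, on either strand, in 4 of the 4 immediate early genes with a promoter, and in 17.8% of 32851 RefSeq promoters. In Fos it began 129 and 66 bases before the start, and in Fosb, Junb and Atf3 it began 60, 106 and 7 bases before the start. The full palindrome TGACGTCA, which contains the core, was in 1.55% of promoters and in none of these genes. TGANTCA, the AP-1 site, was in 6.75% of promoters, the CArG box of serum response factor in 1.47%, and none of these 7 genes held either in this window. The EGR motif was in 4.7% of promoters and in Fosb, and TATAAA was in 12.4% of promoters and in Fos, 33 bases before the start. A heat shock pair, GAANNTTC or TTCNNGAA, was in 12.8% of promoters and began 104 bases before the start in both Hspa1a and Hspa1b. A run of 3 alternating heat shock units was in 0.466% of promoters and in none of these genes. The Hspa1a and Hspa1b promoters had the same base at 247 of 250 positions (98.8%). Dnajb1 held no heat shock pair at either start, and TGACG 11 bases before 1 of its starts. Such a match is a description of letters in this window and not evidence of binding.

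Libraries held between 14033046 and 37951183 counts in genes, with a median of 18548168. Levels are given below as CPM, the gene's share of its library after TMM scaling. Ptprc, the pan-leukocyte marker, was present in every tumour (161 to 761 CPM). The summed level of 3 mesothelial markers was between 0.327 and 6.1 CPM, so mesothelial identity could not be read from them. Skeletal muscle markers (4 genes, summed) reached 3200 CPM in AB23. In bulk tumours, fewer cells of a type and less RNA per cell cannot be told apart. One Tretinoin+ICT non-responder, AB25, stood apart for Fos, Fosb and Egr1, and each result that rests on it is given with and without it. Its total count, 17536099, was inside the range of the other libraries.

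Per kilobase of exon, Junb was the most abundant of the 8 genes in PBS tumours, with a median of 35.4 CPM per kb. Egr1 followed at 22.9 CPM per kb, then Fos at 20.6 and Dnajb1 at 13.9. Hspa1b (2.55 CPM per kb), Atf3 (2.19), Fosb (1.46) and Hspa1a (1.25) were about an order of magnitude lower.

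The first comparison asked how tretinoin alone changed these genes. Compared to PBS, Fos was lower and Atf3, Hspa1a and Hspa1b were higher, by edgeR's quasi-likelihood test with Benjamini-Hochberg adjustment over all 14340 genes tested. The 3 higher genes stand against 11.5% of all genes called higher at adjusted p below 0.05, and the 1 lower gene against 8.95% called lower. With a log2 fold change of at least 1 also required, 2 of the 8 genes were higher (background 1.49%) and 1 was lower (background 0.132%). Junb, Fosb, Egr1 and Dnajb1 did not pass the test. The second comparison asked the same of ICT alone. Atf3, Hspa1a, Hspa1b and Dnajb1 were higher in ICT than in PBS tumours, 4 of 8 against 14.1% of all 14155 genes tested, and 0 of the 8 were lower, against 7.15%. Of the 4, Atf3 and Hspa1a also passed the fold threshold (background 2.28%). Both comparisons used the same PBS tumours.

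The remaining comparisons asked what the combination added. Compared to ICT alone, 1 of the 8 genes (Junb) was higher in Tretinoin+ICT, against 1.57% of 14202 genes tested. Compared to tretinoin alone, 4 were higher (Fosb, Junb, Atf3 and Dnajb1), against 12.3% of 14393 genes, and 0 were lower, against 9.01%. Fosb and Atf3 also passed the fold threshold (background 1.87%), and without AB25 Atf3 alone did, with Fosb at 0.84. Compared to PBS, 6 were higher (Fosb, Junb, Atf3, Hspa1a, Hspa1b and Dnajb1), against 25.7% of 14265 genes, of which Fosb, Atf3 and Hspa1a passed the fold threshold (background 5.45%). None of the 8 was lower in that fit, against 24.5% of all genes, while without AB25 the count was 5 higher and 1 lower, with Fosb no longer called and Fos called lower, against 26.1% and 24.9% of all genes in that fit. The 3 combination comparisons share the Tretinoin+ICT tumours.

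**Figure D1:**
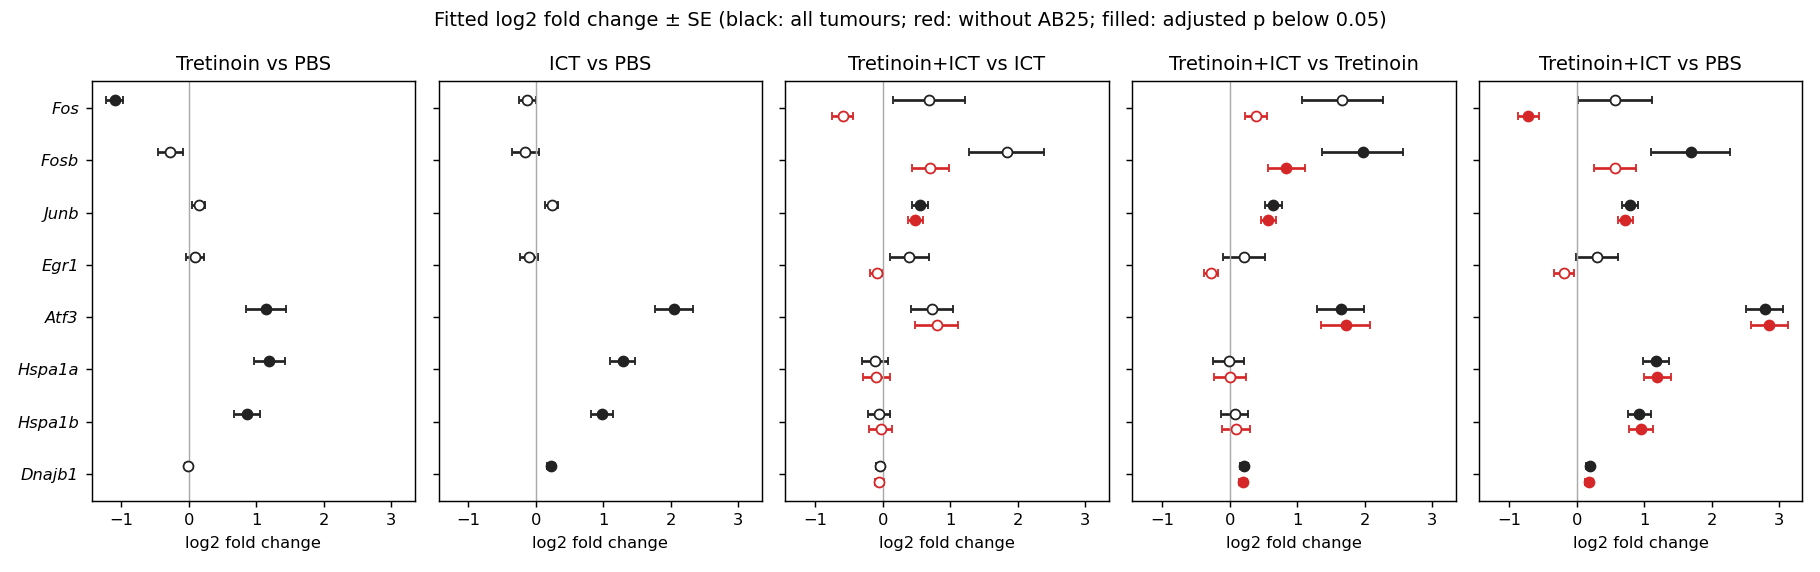
Log2 fold changes (x axis, log2 scale) of the 8 genes (y axis) in the 5 treatment comparisons, with bars showing the SE, for all tumours and without AB25. Fos, Fosb and Egr1 shifted between the fits with and without AB25 in the combination comparisons, from 0.56 to -0.72 for Fos against PBS, and the other genes by little.

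Fos, the founding AP-1 subunit (chr12:85473890-85477273), ranged in PBS tumours from 38 CPM in AB55 to 60.7 CPM in AB51 (median 48.5 CPM). In Tretinoin tumours it was between 15.6 and 27.9 CPM with a median of 22.1 CPM. All 9 Tretinoin tumours were below all 10 PBS tumours, a separation in this direction seen for 0.621% of all genes tested. Fos was 2.14-fold lower with tretinoin (log2 fold change -1.10 ± 0.13, SE; adjusted p = 3.7e-06). Leaving out each tumour in turn gave adjusted p-values between 3.61e-06 and 1.67e-05. When all 39 tumours were fitted together, so that AB25 entered the estimate of spread, the fold change was about the same and the adjusted p was 0.0769.

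ICT tumours held Fos between 26.0 and 56.3 CPM with a median of 44.8 CPM, overlapping PBS, and the difference did not pass the test (log2 fold change -0.13 ± 0.12, 95% interval -0.37 to 0.12, adjusted p = 0.476). In Tretinoin+ICT the lowest was 19.3 CPM, the median 26.5 CPM and the highest 449 CPM, in AB25. Apart from AB25, 7 tumours were below every PBS tumour and AB21 and AB23, at 43.4 and 42.2 CPM, were inside the PBS range. The log2 fold change against PBS was 0.56 ± 0.55 (adjusted p = 0.41) with AB25 and -0.72 ± 0.15 (adjusted p = 0.00063) without it. Against ICT alone the values were 0.69 ± 0.53 (adjusted p = 0.48) with AB25 and -0.60 ± 0.16 (adjusted p = 0.0584) without it. Against tretinoin alone they were 1.67 ± 0.60 (adjusted p = 0.0524) and 0.38 ± 0.16 (adjusted p = 0.0883). A single tumour therefore set the sign of the Fos difference against PBS and against ICT. In the order of medians, Tretinoin and Tretinoin+ICT were neighbours at the low end and ICT and PBS at the high end, and neither pair of neighbours passed the test in the fits of their own groups. The difference between the combination and tretinoin did pass with all 39 tumours in 1 fit (1.67, adjusted p = 0.00526), with a minimum of 10 counts in every tumour (adjusted p = 0.0434) and when AB21, AB43, AB44 or AB45 was left out.

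**Figure D2:**
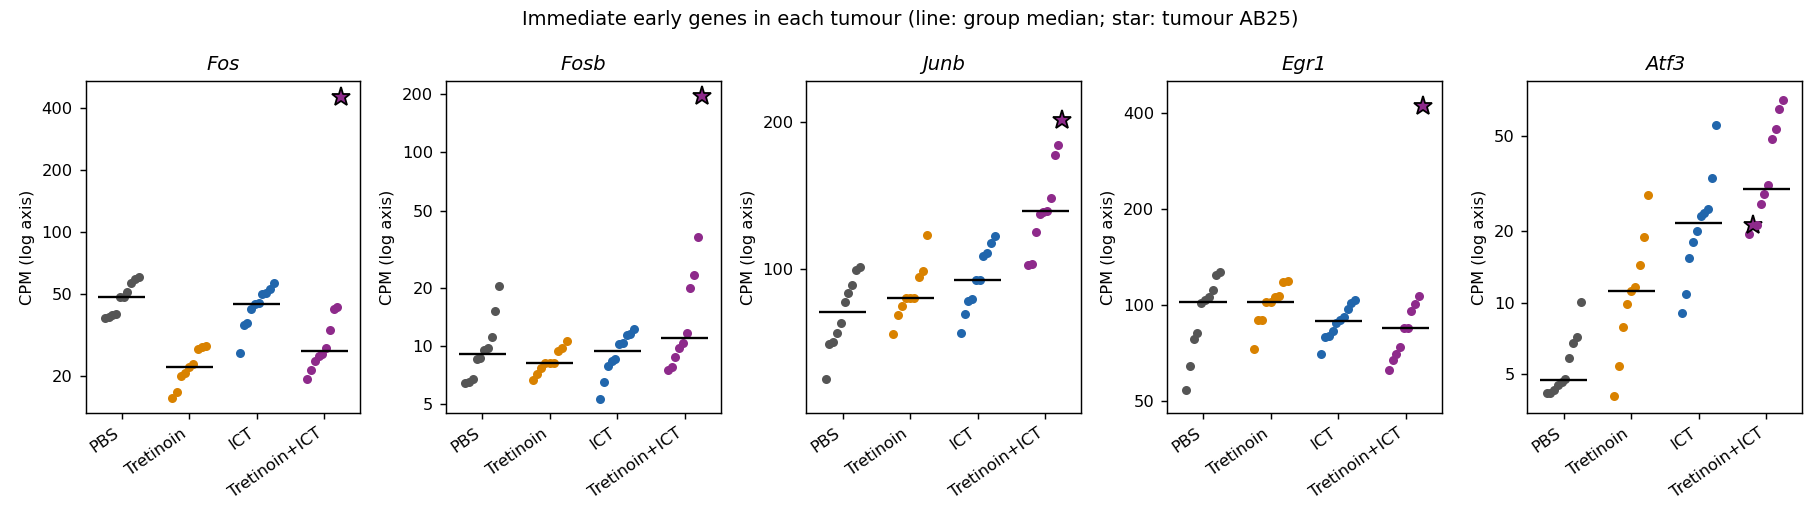
CPM (log axis) of Fos, Fosb, Junb, Egr1 and Atf3 in every tumour of the 4 groups, each point 1 tumour and each bar the group median, with AB25 marked. AB25 lies far above its group for Fos (449 CPM), Fosb (195 CPM) and Egr1 (420 CPM) but not for Atf3 (21.2 CPM).

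Fosb, a second FOS-family subunit, was between 6.43 and 20.4 CPM in PBS (median 9.10), 6.66 and 10.6 CPM in Tretinoin (median 8.16), and 5.29 and 12.2 CPM in ICT (median 9.38). These 3 groups overlapped, and neither treatment alone passed the test against PBS (adjusted p = 0.30 for tretinoin and 0.609 for ICT). Tretinoin+ICT tumours ran from 7.47 to 195 CPM with a median of 11 CPM. Its 4 highest tumours were AB25 at 195 CPM, AB22 at 36.6, AB24 at 23.3 and AB21 at 19.8 CPM, all of name series 2. Series 4 lay between 7.47 and 11.6 CPM. The log2 fold change against PBS was 1.69 ± 0.59 (adjusted p = 0.0223) and fell to 0.56 ± 0.31 (adjusted p = 0.139) without AB25. Against tretinoin alone it was 1.97 ± 0.60 (adjusted p = 0.0286) and 0.84 ± 0.28 (adjusted p = 0.0349) without AB25, while leaving out AB72 raised the adjusted p to 0.0536 and using no filter on low counts raised it to 0.0607. Against ICT alone it was 1.83 ± 0.56 (adjusted p = 0.104) and 0.71 ± 0.28 (adjusted p = 0.172) without AB25.

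Egr1, which binds GC-rich promoter sites, passed the test in no comparison. It was between 54.1 and 127 CPM in PBS (median 103), 73.1 and 119 CPM in Tretinoin (median 103), and 70.2 and 104 CPM in ICT (median 89.2). Tretinoin+ICT had a median of 84.8 CPM, with 62.8 CPM the lowest and AB25 the highest at 420 CPM. All groups overlapped. The sign of each combination comparison turned on AB25, from 0.30 to -0.19 (log2) against PBS, from 0.39 to -0.09 against ICT and from 0.21 to -0.28 against tretinoin.

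Junb, the AP-1 subunit that can antagonise c-Jun, showed another order. PBS tumours held 59.5 to 101 CPM (median 81.5), Tretinoin tumours 73.4 to 117 CPM (median 87.0) and ICT tumours 73.9 to 117 CPM (median 94.8). These 3 groups overlapped. Tretinoin+ICT tumours held 102 to 202 CPM with a median of 131 CPM. All 10 were above every PBS tumour, a separation seen upwards in 3.77% of all genes tested, and 8 of 10 were above every ICT tumour. Junb was 1.73-fold higher in Tretinoin+ICT than in PBS (log2 fold change 0.79 ± 0.12, adjusted p = 3.3e-05), 1.46-fold higher than in ICT (0.55 ± 0.12, adjusted p = 0.0146) and 1.56-fold higher than in Tretinoin (0.65 ± 0.12, adjusted p = 0.0021). Without AB25 the log2 fold changes were 0.72, 0.48 and 0.57 and the calls held. Tretinoin alone (0.15 ± 0.10, 95% interval -0.04 to 0.34, adjusted p = 0.281) and ICT alone (0.23 ± 0.10, 95% interval 0.042 to 0.43, adjusted p = 0.0904) did not pass against PBS, although ICT passed when either AB14 or AB64 was left out.

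Atf3, a stress-inducible repressor and activator (chr1:191170296-191218039), had the widest range between groups. PBS tumours held 4.18 to 10.1 CPM (median 4.71), with AB14 the highest and the next at 7.20 CPM. Tretinoin tumours held 4.05 to 28.2 CPM (median 11.2), ICT tumours 9.08 to 55.6 CPM (median 21.6) and Tretinoin+ICT tumours 19.5 to 71.2 CPM (median 30.1). Tretinoin overlapped PBS, with 5 of 9 tumours above every PBS tumour, ICT overlapped it only at AB14, with 9 of 10 above, and Tretinoin+ICT did not overlap it. Against PBS, Atf3 was 2.21-fold higher with tretinoin (log2 fold change 1.15 ± 0.29, adjusted p = 0.011), 4.15-fold higher with ICT (2.05 ± 0.28, adjusted p = 0.00018) and 6.91-fold higher with both (2.79 ± 0.28, adjusted p = 4.4e-07). The combination was 3.12-fold higher than tretinoin alone (1.64 ± 0.35, adjusted p = 0.0053). Against ICT alone the difference was 0.73 ± 0.32 (log2; 95% interval 0.11 to 1.35) with an adjusted p of 0.238. AB25, at 21.2 CPM, was ninth of the 10 Tretinoin+ICT tumours for Atf3, and leaving it out changed no Atf3 call.

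Within groups, leukocyte markers moved with Atf3. In 4 of 4 groups, the tumour with the highest Atf3 was also the tumour with the highest Ptprc, namely AB14 (404 CPM Ptprc), AB33 (411 CPM), AB63 (761 CPM) and AB41 (581 CPM). Over 39 tumours with group means subtracted, the log2 CPM of Atf3 and of Ptprc had a Pearson r of 0.803 and a Spearman rho of 0.819. The corresponding r was 0.848 with the summed neutrophil markers, 0.81 with the macrophage markers and 0.813 with the NK markers. These points share library depth and tissue content, and the values are a description. All 4 of the 4 neutrophil markers with a row rose with ICT, against 14.1% of all genes. Their summed level had medians of 66.5 CPM in PBS, 74.3 in Tretinoin, 161 in ICT and 156 in Tretinoin+ICT. The ranges were 45.9 to 110, 56.5 to 161, 67.5 to 264 and 102 to 258 CPM. All 4 of the 4 macrophage markers with a row also rose with ICT, whereas Ptprc itself (log2 fold change 0.57) did not pass in that comparison. With tretinoin, 0 of the 4 neutrophil markers rose (median log2 fold change -0.17) and 1 of the 4 macrophage markers did, against 11.5% of all genes. Ptprc, at 0.14, did not pass there either. The part of these cells in the Atf3 difference was not tested. For the other members, r with Ptprc was between -0.219 (Egr1) and 0.293 (Junb), and between -0.179 (Egr1) and 0.382 (Junb) without AB25, where Fos went from 0.0353 to 0.359. Junb had an r of 0.488 with the neutrophil markers, and 0.627 without AB25.

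The HSP70 genes were higher after every treatment. Hspa1a (chr17:34969190-34972156) held 2.11 to 5.35 CPM in PBS (median 3.71), 3.63 to 13.4 CPM in Tretinoin (median 7.28), 5.77 to 14.1 CPM in ICT (median 8.93) and 4.42 to 13.8 CPM in Tretinoin+ICT (median 7.85). All 10 ICT tumours were above every PBS tumour, a separation seen upwards in 0.389% of all genes tested, as were 8 of 9 Tretinoin tumours and 9 of 10 Tretinoin+ICT tumours. Hspa1a was 2.29-fold higher with tretinoin (log2 fold change 1.19 ± 0.23, adjusted p = 0.0011), 2.44-fold higher with ICT (1.28 ± 0.19, adjusted p = 0.00028) and 2.26-fold higher with both (1.18 ± 0.20, adjusted p = 6.1e-05). The combination did not pass the test against either single treatment, with a difference between the combination and ICT of -0.12 (95% interval -0.49 to 0.26) and between the combination and tretinoin of -0.016 (95% interval -0.46 to 0.43) on the log2 scale.

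Hspa1b (chr17:34956436-34959238) followed the same order. Its median was 7.16 CPM in PBS (3.76 to 9.01), 11 CPM in Tretinoin (6.56 to 19.5), 13.3 CPM in ICT (9.48 to 21.0) and 12.6 CPM in Tretinoin+ICT (7.56 to 19.8). ICT tumours did not overlap PBS tumours, and the other treated groups did. The log2 fold change against PBS was 0.86 ± 0.20 with tretinoin (adjusted p = 0.0050), 0.98 ± 0.16 with ICT (adjusted p = 0.00072) and 0.93 ± 0.17 with both (adjusted p = 0.00017). Reads cannot be fully assigned between these genes. Of all 100-base windows in the Hspa1a transcripts, 56.5% also occur in another gene, and 49.9% do so for Hspa1b, and Gm20481 overlaps 2225 bases of Hspa1a on the opposite strand. With both genes summed as 1 row, the log2 fold change was 0.98 (adjusted p = 0.0028) for tretinoin, 1.09 (adjusted p = 0.00048) for ICT and 1.02 (adjusted p = 0.00011) for the combination. The ratio of Hspa1a to Hspa1b counts had medians of 0.552 in PBS, 0.668 in Tretinoin, 0.644 in ICT and 0.613 in Tretinoin+ICT. Of the other genes, 3.66% of Junb windows recur in Prdx2, which overlaps it on the opposite strand, and 0% recur elsewhere for Fos, Fosb, Egr1, Atf3 and Dnajb1.

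Dnajb1 varied least. Its levels were 39.9 to 50.3 CPM in PBS (median 44.5), 40.0 to 47.8 CPM in Tretinoin (median 44.6), 47.2 to 63.8 CPM in ICT (median 51.8) and 45.1 to 63.0 CPM in Tretinoin+ICT (median 49.9). The Tretinoin tumours lay inside the PBS range, and 6 of 10 ICT tumours were above every PBS tumour. Dnajb1 was 1.17-fold higher with ICT than with PBS (log2 fold change 0.22 ± 0.055, adjusted p = 0.0088), and 1.14-fold higher with both (0.19 ± 0.057, adjusted p = 0.0080). It was 1.15-fold higher in the combination than with tretinoin alone (0.21 ± 0.057, adjusted p = 0.0171). Tretinoin alone gave -0.016 (95% interval -0.10 to 0.072), and the combination against ICT -0.042 (95% interval -0.17 to 0.084).

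**Figure D3:**
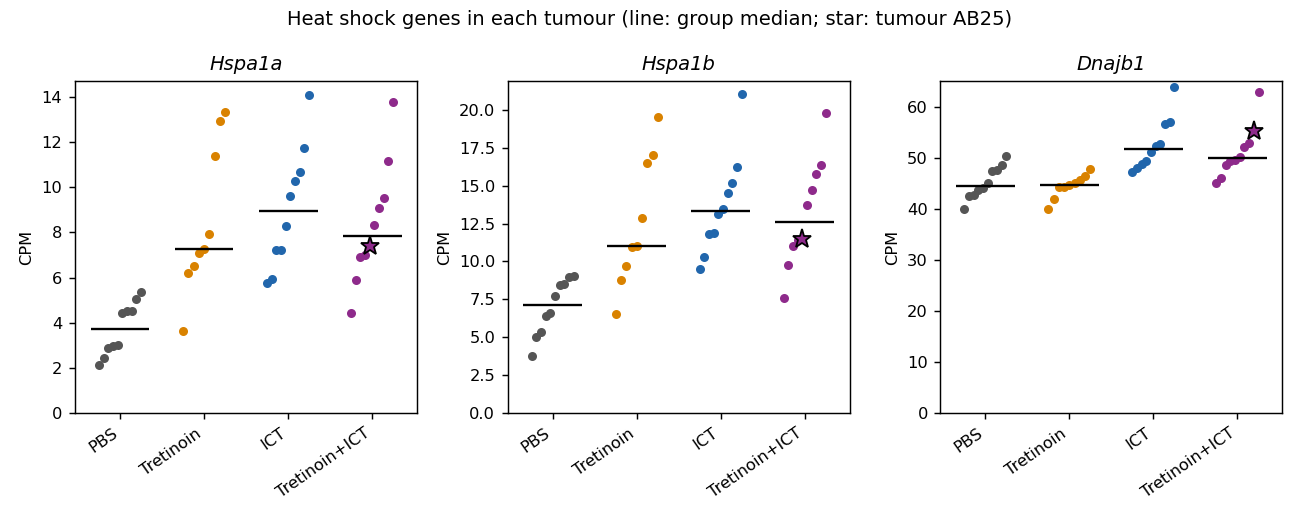
CPM (linear axis) of Hspa1a, Hspa1b and Dnajb1 in every tumour of the 4 groups, each point 1 tumour and each bar the group median. All 10 ICT tumours lie above all 10 PBS tumours for Hspa1a and Hspa1b, while the Dnajb1 medians of the 4 groups differ by little, from 44.5 to 51.8 CPM.

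Whether tretinoin and ICT added up was asked with the interaction term of a fit to all 39 tumours. Hspa1a was the 1 gene of the 8 called, with a log2 interaction of -1.31 ± 0.30 (adjusted p = 0.0391), against 0.267% of 14977 genes called in that direction. Hspa1a in the combination was thus below the level that the product of both single-treatment folds gives. The call was lost in 23 of 39 fits that left out 1 tumour, with adjusted p-values between 0.0146 and 0.0938 and interactions between -1.41 and -1.19, and in the fit with no filter on low counts (adjusted p = 0.0828). Hspa1b had an interaction of -0.91 ± 0.26 (adjusted p = 0.144). Fos (1.79 ± 0.59, adjusted p = 0.259) and Fosb (2.11 ± 0.62, adjusted p = 0.184) had positive interactions that did not pass and that were 0.51 and 0.99 without AB25. Atf3 (-0.42 ± 0.45), Junb (0.40 ± 0.16), Egr1 (0.30 ± 0.34) and Dnajb1 (-0.026 ± 0.078) did not pass.

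AB25 was the highest of all 39 tumours for Fos, Fosb, Egr1 and Junb. Fos stood at 449 CPM against 60.7 CPM in the next tumour, a 7.39-fold gap, Fosb at 195 against 36.6 CPM (5.34-fold) and Egr1 at 420 against 127 CPM (3.31-fold). Junb, at 202 CPM, was followed closely by AB42 at 179 CPM. These Fos counts were not few, with 7712 counts in AB25 and 392 to 775 in the rest of its group. Of 14977 genes, 7 were at least 2-fold higher in AB25 than in every other tumour. The same count in the other tumours had a median of 1.0 and ran from 0 to 17, so the number of such genes was not the highest in AB25. Besides Fos, Fosb and Egr1, those of AB25 were Zfp36, which encodes an mRNA decay factor (319 CPM, 2.35-fold above the next), Cyr61, a matricellular immediate early gene (397 CPM, 2.03-fold), Rpl15-ps2 and Gm37352. In the wider immediate early lists, AB25 was the highest of 39 tumours for 10 of 29 genes, by at least 2-fold for 2. The share of all genes with their highest level in AB25 was not counted, so this number has no background beside it. In the same lists AB25 was the lowest of the 10 Tretinoin+ICT tumours for Nr4a3 (12.8 CPM) and ninth for Gadd45g (13.5 CPM). The stress genes did not share this, with ratios to the median of the other 9 Tretinoin+ICT tumours of 0.676 for Atf3, 0.888 for Hspa1a, 0.835 for Hspa1b and 1.12 for Dnajb1, compared to 17.6 for Fos, 18.8 for Fosb and 4.96 for Egr1. AB25 was also low for several markers of other cells. Its summed level was the lowest of the 10 Tretinoin+ICT tumours for NK (20.1 CPM), dendritic (27.9), mast (38.7), muscle (422) and adipocyte (13.9) markers, and ninth of 10 for Ptprc (312 CPM) and for B cell (3.43), neutrophil (110) and erythroid (20) markers. It ranked between 4 and 8 of 10 for T cell, macrophage, endothelial, fibroblast, mesothelial and skin markers. The part of cell content in the AB25 values was not tested. Tumours went into RNAlater straight after resection per the study's methods, and no handling time of a single tumour is given in the sources used here.

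**Figure D4:**
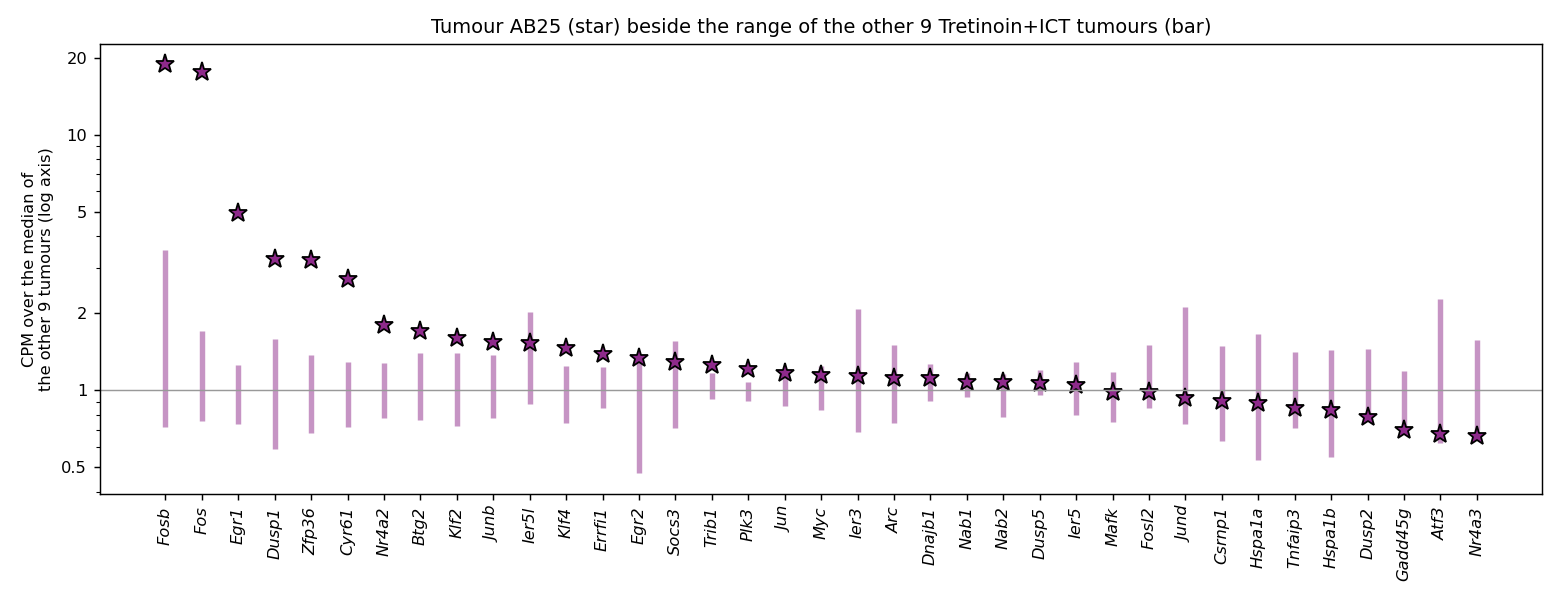
CPM of immediate early and heat shock genes in AB25, divided by the median of the other 9 Tretinoin+ICT tumours (log axis). Bars give the range of those 9 tumours over the same median. AB25 lies above the range of its group for Fos, Fosb, Egr1 and Junb, by 17.6-fold over the median of the others for Fos, and within it for Atf3, Hspa1a, Hspa1b and Dnajb1.

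Responders and non-responders within Tretinoin+ICT were compared to ask whether these genes, measured before the outcome was known, differed with it. None of the 8 genes passed edgeR's test, nor did any of the 14604 genes tested (0% called), while 3302 genes had an unadjusted p below 0.05. Atf3 was 21.2, 28.8, 48.5, 53.8, 65.4 and 71.2 CPM in the 6 responders and 19.5, 21.2, 25.9 and 31.3 CPM in the 4 non-responders. The groups overlapped, with 4 of 6 responders above every non-responder (log2 fold change 1.0 ± 0.33, adjusted p = 0.122). Hspa1b was 11.4 to 19.8 CPM in responders (median 15.3) and 7.56, 9.77, 11.1 and 11.5 CPM in non-responders, with 5 of 6 responders above every non-responder (0.65 ± 0.16, adjusted p = 0.0862). Hspa1a had the same count of 5 of 6 (0.70 ± 0.20, adjusted p = 0.0955). These 3 genes passed in DESeq2 (adjusted p = 0.0164 for Atf3, 0.0189 for Hspa1a and 0.00728 for Hspa1b), and in edgeR when AB43, a responder, was left out. In those fits 6.74% of the 12818 genes with an adjusted p in DESeq2 and 6.68% of the 14540 genes in edgeR without AB43 were called higher.

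Fos was 19.3 to 33.4 CPM in responders (median 25.3) and 21.4, 42.2, 43.4 and 449 CPM in non-responders. The 3 highest were non-responders of name series 2, and the log2 fold change went from -2.41 ± 0.79 (adjusted p = 0.126) to -0.47 ± 0.22 (adjusted p = 0.296) without AB25. Fosb (-1.86 ± 0.94, adjusted p = 0.279) changed sign without AB25 (0.25 ± 0.57), and Egr1 went from -1.09 ± 0.46 (adjusted p = 0.203) to -0.18 ± 0.17. Junb and Dnajb1 differed by 0.096 (95% interval -0.30 to 0.49) and 0.090 (95% interval -0.092 to 0.27). Ptprc had a median of 472 CPM in responders and 319 CPM in non-responders, and the summed neutrophil markers 201 and 127 CPM, and none of these markers passed the test. Their part in the Atf3 values was not tested.

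Between name series of the same treatment, 0 of the 8 genes passed in each of the 4 groups, against 0.147% of all genes in PBS and 0% in Tretinoin, ICT and Tretinoin+ICT. For Fos, series 1 and 5 (both PBS) had medians of 50.9 and 39.5 CPM and series 3 and 7 (both Tretinoin) 22.8 and 21.4 CPM. Both Tretinoin series were therefore below both PBS series. Series 6 and 8 (both ICT) had medians of 49.7 and 42.2 CPM.

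The wider lists were chosen with earlier results known. Each is given by its counts beside the shares of all genes, and in places by its median log2 fold change. The median of all genes was between -0.016 and 0.0079 in the comparisons of a single treatment with PBS. The feedback list holds genes that restrain immediate early signalling. With tretinoin, 5 of its 8 tested genes rose (median 0.41), against 11.5% of all genes, and 0 fell. They included Trib1, a pseudokinase (0.51 ± 0.052, adjusted p = 5.9e-07), Errfi1, an inhibitor of the EGF receptor (0.67 ± 0.068, adjusted p = 6.9e-07), Tnfaip3, which encodes the NF-κB inhibitor A20 (0.90 ± 0.13, adjusted p = 7.7e-05), and Dusp1, a MAP kinase phosphatase (0.45 ± 0.082, adjusted p = 0.00064). With ICT, 7 of 8 rose (median 0.59), against 14.1%, and Dusp1 led with 1.60 ± 0.13 (adjusted p = 2.6e-07). The combination exceeded ICT for 3 of the 8, against 1.57% of all genes. These were Trib1 (0.48 ± 0.068, adjusted p = 0.00022), Dusp5, which acts on nuclear ERK (0.47 ± 0.075, adjusted p = 0.00092), and Socs3, an inhibitor of cytokine receptors (0.72 ± 0.15, adjusted p = 0.0134). All 3 calls held without AB25. All 8 feedback genes were higher in the combination than in PBS (median 1.04, and 0.92 without AB25), against 25.7% of all genes.

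Of 4 other AP-1 genes, Jun rose with tretinoin (0.29 ± 0.091, adjusted p = 0.0284) and Fosl2, a FOS-family subunit, fell by 0.46 on the log2 scale (SE 0.083, adjusted p = 0.00069). In that comparison 11.5% of all genes rose and 8.95% fell. With ICT, 3 of the 4 rose, against 14.1% of all genes, namely Jun (0.35), Mafk (0.28) and Jund (0.56), and Fosl2 did not pass. Against tretinoin alone, all 4 were higher in the combination, against 12.3% of all genes. Jun was the 1 AP-1 gene higher in the combination than in ICT (0.29 ± 0.072, adjusted p = 0.0374), against 1.57% of all genes. Its adjusted p was 0.0599 without AB25. Of 5 EGR and NR4A genes tested, 1 was higher in the combination than in ICT, against 1.57% of all genes. This was Egr2 (1.02 ± 0.24, adjusted p = 0.0272, and 0.95 without AB25). Against PBS, 3 were higher and 1 lower in the combination, against 25.7% and 24.5% of all genes. Egr2 was among the higher genes (1.63 ± 0.20, adjusted p = 2.8e-06), unlike Egr1, which did not pass there. Nr4a2 was the lower gene (-0.32 ± 0.13, adjusted p = 0.0475, and -0.44 without AB25). With ICT alone, 2 rose and 1 fell (Nr4a2, -0.36 ± 0.13), against 14.1% and 7.15% of all genes. Nab1, an EGR corepressor, fell with tretinoin (-0.21 ± 0.033, adjusted p = 0.00014), against 8.95% of all genes, and 0 of the 5 rose, against 11.5%. Among 12 other immediate early genes, tretinoin gave 1 rise (Ier3, an apoptosis regulator, 0.67) and 1 fall (Arc, -0.44), near the same shares of all genes. ICT gave 8 rises (median 0.36), against 14.1% of all genes, with the lowest p for Cyr61 (0.63 ± 0.091, adjusted p = 0.00023). The combination against PBS gave 10 rises and 1 fall, against 25.7% and 24.5% of all genes. Without AB25 it gave 9 and 1, against 26.1% and 24.9%. With all tumours, Ier3 (1.93 ± 0.20, adjusted p = 7.4e-07), Csrnp1 (1.25) and Klf2 (1.05) were among the genes that rose.

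For the wider chaperone list, the calls with each single treatment are given beside the shares of all genes called. With tretinoin, 1 of 23 genes rose (Dnajb5, 0.37 ± 0.061, adjusted p = 0.00024), against 11.5% of all genes, and 3 fell, against 8.95% (Cacybp, Hspe1 and Hspd1, of which the last 2 encode the mitochondrial chaperonin). With ICT, 3 rose, against 14.1% of all genes, namely the small heat shock protein gene Cryab (0.63 ± 0.16, adjusted p = 0.0101), the constitutive HSP70 gene Hspa8 (0.16 ± 0.046, adjusted p = 0.0169) and Dnajb6 (0.076 ± 0.026, adjusted p = 0.0417), while Serpinh1, a collagen chaperone, fell by 0.29 (adjusted p = 0.0313; 7.15% of all genes were lower). In the combination against PBS, 5 rose, against 25.7% of all genes, and 11 fell, against 24.5% (median -0.098, and 11 falls also without AB25). The share that rose was near that of all genes in this comparison, as it was with ICT. Cryab was 1.25 ± 0.20 higher (adjusted p = 5.7e-05), and Hspd1 (-0.52 ± 0.082), the HSP90 co-chaperone Fkbp4 (-0.47 ± 0.080) and Hsp90aa1 (-0.36 ± 0.065) were lower. None of the 23 passed between the combination and ICT. Genes of the endoplasmic reticulum and integrated stress response, to which Atf3 belongs functionally, gave 0 calls of 14 with tretinoin and 8 rises with ICT (median 0.24), against the same shares of all genes. These included Herpud1 (0.41 ± 0.068), Sdf2l1 (0.56 ± 0.11), Xbp1 (0.27 ± 0.054) and Trib3 (0.82 ± 0.17). The combination against PBS gave 9 rises and 1 fall, against 25.7% and 24.5% of all genes. Trib3 was at 1.25 ± 0.19 (adjusted p = 1.6e-05) and Ddit3, which encodes CHOP, at 0.53 ± 0.11 (adjusted p = 0.00040).

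Between tumours of the same group, the spread of the 8 genes ran from low to very high. The within-group SD of log2 CPM was 0.811 for Fosb, 0.72 for Fos and 0.697 for Atf3, at percentiles 96.9, 95.4 and 94.8 of 14977 genes, whose median SD was 0.22. Hspa1a, Egr1 and Hspa1b stood at percentiles 82.8, 81.8 and 76.2, Junb at 56.6 and Dnajb1 at 14.9. Without AB25, Fos dropped to percentile 67.1, Egr1 to 61.2 and Fosb to 86.2, while Atf3 was at 94.9. The spread of Atf3 thus did not rest on AB25.

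The genes did not vary as 1 block within groups. Over 39 tumours with group means subtracted, the 10 pairs of immediate early genes had a median Pearson r of 0.427 (-0.25 to 0.763), and a median of 0.175 (-0.179 to 0.544) without AB25. Fos and Egr1 had an r of 0.763 and Fos and Fosb 0.753, which were 0.176 and 0.227 without AB25. Junb and Atf3 went the other way, from 0.42 to 0.544. Hspa1a and Hspa1b had an r of 0.956 with or without AB25, in genes that share windows, whereas Dnajb1 had an r of 0.226 with Hspa1a and 0.27 with Hspa1b. The 15 pairs of an immediate early and a heat shock gene had a median of 0.176. These are descriptions over tumours that share library depth and tissue content.

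**Figure D5:**
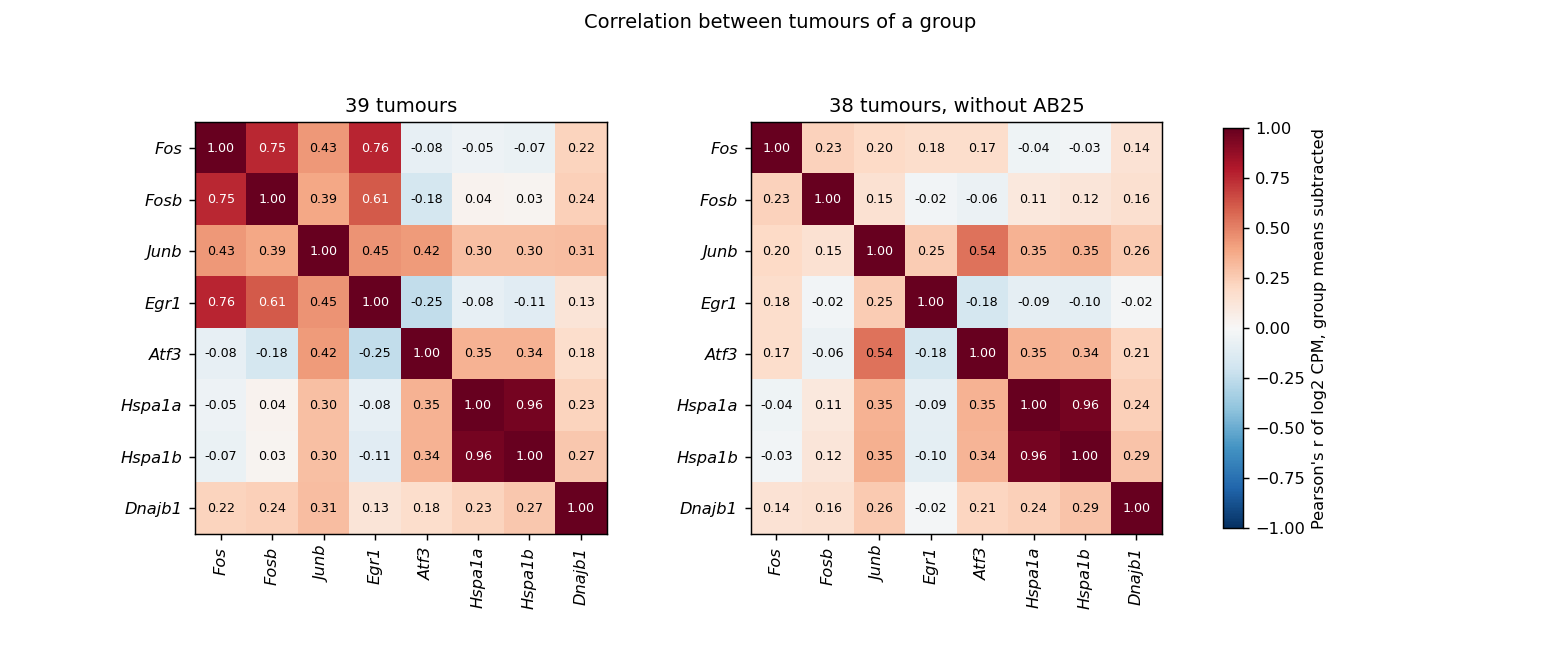
Pearson r of log2 CPM, group means subtracted, for each pair of the 8 genes, over 39 tumours and over 38 without AB25, with colour giving r from -1 to 1. The Fos, Fosb and Egr1 block (0.61 to 0.763) fades without AB25, while Hspa1a with Hspa1b stays at 0.956.

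By the mean r with the 5 immediate early genes over 39 tumours, the nearest of 12115 genes were Zfp36 (0.595), Cyr61 (0.511), Lif (0.466), Plk3 (0.42) and Gm6377 (0.418). Without AB25 they were Cd68 (0.392), Zfp36 (0.392), Socs3 (0.388), St6galnac4 (0.374) and Grn (0.374), so that only Zfp36 was in both sets of 5. For the 3 heat shock genes the nearest were Hspa8 (0.507), B3gnt3 (0.475), Zfp954 (0.464), Gm29585 (0.463) and Iqcc (0.453), and the same 5 genes were nearest without AB25.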

How the data were processed

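RNA from whole tumours was sequenced as 100-base single-end reads on a NovaSeq. Per the labels and the study's methods, the authors demultiplexed with bcl2fastq 2.20.0.422, aligned with HISAT2 2.0.4 to a mouse genome named mm11 and deposited raw counts per gene made with SummarizeOverlaps. Strand setting and the handling of multiply mapped reads are not given in the sources used here, so overlapping and near-identical genes could trade reads. All 39 tumours of the count table were used, with groups from the labels. Labels do not say how tumours map to mice, and p-values measure the spread between these tumours.

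The genes and all gene lists were chosen with earlier results of these data known. Here, each comparison was fitted on its own groups (R 4.3.3, edgeR 4.0.16) with filterByExpr, TMM scaling and quasi-likelihood tests over all genes, with adjusted p (Benjamini-Hochberg) below 0.05 as the threshold, and a log2 fold change of 1 as a further one. The interaction used all 39 tumours. SE was the fold change over the square root of F, and 95% intervals were taken from it. Alternatives were DESeq2 1.42.0, its size factors in edgeR, no filter, at least 10 counts in every tumour, 1 joint fit, Hspa1a and Hspa1b summed, and leaving out each tumour. Scripts were tested on simulated data. Exons and lengths came from the reference annotation (36719 of 39676 identifiers matched with version), and promoter sequences from RefSeq on GRCm38.p6, whose relation to the authors' build is not stated. Per list and comparison, the 4 called genes of lowest p were named. Log2 CPM used a prior count of 2. The nearest genes were taken among those with a mean log2 CPM of at least 1.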

Additional observations from a re-analysis of the deposited data

Results flagged for a closer look

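AB25, a Tretinoin+ICT non-responder, was far from the other tumours of its group for Fos (449 CPM), Fosb (195 CPM) and Egr1 (420.0 CPM), both among all 10 Tretinoin+ICT tumours and among the 4 non-responders, by Dixon's criterion for 1 distant value. Atf3 was far from the rest of its group in AB14 among PBS tumours (10.1 CPM) and in AB63 among ICT tumours (55.6 CPM). Both tumours also had the highest Ptprc of their group, and its part was not tested. In all, 8 of 48 sets of values were marked in this way, and 6 of the 8 are the same tumour. The criterion marks about 1 in 20 sets when they are independent and normal. These sets overlap and hold CPM that was not log-transformed, so 8 of 48 cannot be compared with that rate. The effect of tretinoin on Hspa1a differed between tumours with and without ICT (interaction of -1.31 on the log2 scale, edgeR adjusted p = 0.0391, lost in 23 of 39 fits that left out 1 tumour).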

How the results depend on the processing

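Of 306 values of single genes under alternatives other than leaving out a tumour, 4 lost a call, 6 gained one and 6 changed sign. The other 290 kept their direction and, where an adjusted p was given, their side of the threshold. With all 39 tumours in 1 fit, 0 of the genes were called lower with tretinoin and 2 were called higher in the combination than in ICT (Junb, and Fosb with an adjusted p of 0.0096). In that fit 5 instead of 4 were higher in the combination than in tretinoin, with Fos added (adjusted p = 0.00526). Of all 14977 genes in that fit, 14.6% were higher than in tretinoin, compared to 12.3% in the fit of those groups alone. For the other counts of the joint fit, and for those of DESeq2 against ICT and PBS, shares of all genes are not given here. Against tretinoin, Fos was also called with at least 10 counts in every tumour (adjusted p = 0.0434), and the Fosb call was lost with no low-count filter (adjusted p = 0.0607). DESeq2 replaced the AB25 count of Fos, Fosb and Egr1 in the combination comparisons. With it, 1 gene (Fos) was lower in the combination than in ICT and 1 (Fos) than in PBS, at -0.56 and -0.67. Fosb, called higher than in PBS by edgeR, was not called by DESeq2 (0.52, adjusted p = 0.177). Egr1 was -0.087 against ICT, -0.26 against tretinoin and -0.18 against PBS. DESeq2 also called 3 genes higher in responders, and it set the adjusted p of Fos, Fosb and Egr1 to NA there. With no low-count filter the interaction gave 0 calls. Hspa1a and Hspa1b summed differed by 0.036 between the combination and tretinoin. The median percentile of spread was 93.3 with a variance-stabilised scale.

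Leaving out each tumour, an alternative that for the treatment comparisons, the interaction, the spread and the covariation was chosen after seeing the data, gave sign changes only for differences that did not pass. The log2 ranges were, for tretinoin against PBS, -0.036 to 0.0026 for Dnajb1, and for ICT against PBS, -0.21 to 0.0098 for Fosb. For the combination against ICT they were -0.093 to 0.47 for Egr1, -0.60 to 0.80 for Fos and -0.14 to 0.036 for Hspa1b, and against tretinoin -0.28 to 0.28 for Egr1, -0.13 to 0.094 for Hspa1a and -0.013 to 0.18 for Hspa1b. Against PBS they were -0.19 to 0.37 for Egr1 and -0.72 to 0.68 for Fos, with 0 to 1 genes called lower, the 1 being Fos without AB25. For the interaction they were -0.18 to 0.39 for Egr1 and -0.053 to 0.016 for Dnajb1, with 0 to 1 genes called lower. Between responders and non-responders they were -2.29 to 0.25 for Fosb and -0.050 to 0.33 for Junb, with 0 to 3 genes called higher. Without AB25 the median percentile of spread was 72.0 and the median r of immediate early pairs 0.175.

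No paired analysis was possible because replicate numbers followed accession order and each treatment had name series of its own. Between responders and non-responders, with the name series as a replicate block, the log2 fold change of Atf3 was 1.02, that of Fos -1.68 (edgeR adjusted p = 0.403) and 0 genes were called. Depth limits Hspa1a most, with 37 counts in its lowest tumour.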
